A study of Homo sapiens with 12 samples.

Results

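The 8 genes described here encode secreted angiogenic and stress-responsive factors and the neuropilin co-receptors. They are VEGFA, VEGFB, VEGFC and PGF of the vascular endothelial growth factor (VEGF) family, the peptide hormone adrenomedullin (ADM), the glycoprotein hormone stanniocalcin 2 (STC2), and neuropilin 1 and 2 (NRP1, NRP2). They were taken by symbol from a table of 24641 gene symbols, and all 8 were found and had enough reads to be tested. The cells were MDA-MB-231, an established human triple-negative breast cancer line, labelled either WT with a control short hairpin RNA (shControl) or RIPOR3 knockdown with a hairpin against RIPOR3 (shRIPOR3). Hypoxia meant 24 hours at 1% O2, and each hairpin was sequenced as messenger RNA in 3 libraries per oxygen level, 4 groups in all, in a study of RIPOR3 in breast tumour growth and spread. The column names of the 6 shRIPOR3 libraries carry the same hairpin tag, and whether each line was a clone or a pool is not given in the sources used here.

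VEGF ligands are dimeric proteins that bind receptor tyrosine kinases on endothelial cells, and neuropilins are co-receptors that bind both VEGF ligands and class 3 semaphorins. When oxygen is low, hypoxia-inducible factors (HIF) bind DNA at a short core motif, and VEGFA and ADM are among the long-known genes induced in this way. Tumour cells secrete such ligands to nearby vessels, and many tumour cells carry neuropilins themselves.

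The normoxia libraries held 14750734 to 30032858 counts and the hypoxia libraries 31781324 to 52526813. Depth thus moved with oxygen, and the fold changes of the 8 genes and the counts of genes called were also computed with all libraries thinned to the lowest total. RIPOR3 itself was scarce, with 7, 3 and 7 counts in shControl and 0, 0 and 1 in shRIPOR3 in normoxia, and 33, 18 and 30 against 9, 3 and 11 in hypoxia. The mesenchymal markers expected of this line were abundant, and their sum moved with oxygen and hairpin. Their summed level, over 8 genes, was 2420 to 2440 CPM (counts scaled by library total and TMM factor to a common depth) in shControl and 2120 to 2160 in shRIPOR3 in normoxia, and 4370 to 4540 and 3050 to 3100 CPM in hypoxia. In shControl, mean FN1 went from 340 CPM in normoxia to 1360 in hypoxia, but ZEB1 from 217 to 195 and CAV1 from 187 to 188. In hypoxia 1 of the 8, AXL, was higher in shRIPOR3 and 7 were lower, beside 30.7% and 31.2% of all genes. The 9 luminal epithelial markers summed to 1390 to 1480 CPM in shControl and 1480 to 1540 in shRIPOR3 in normoxia. In hypoxia they summed to 1200 to 1220 and 1240 to 1300 CPM. KRT8 held most of that, at 990 CPM in normoxia shControl. Blood cell markers summed to at most 0.813 CPM. The 10 endothelial markers summed to 142 to 155 CPM in shControl and 166 to 172 in shRIPOR3 in normoxia, and to 191 to 203 and 212 to 222 CPM in hypoxia. TIE1, ESAM and ROBO4 held most of that sum, at 46.5, 58.2 and 36.4 CPM on average in normoxia shControl. EMCN, ERG and VWF held at most 2, 3 and 10 counts in a library. Among the 6 tested, 2 were higher and 2 lower in shRIPOR3 in normoxia, and 2 higher and 4 lower in hypoxia. The shares of all genes were 25.1% higher and 20.6% lower in normoxia, and 30.7% and 31.2% in hypoxia. PECAM1 and CDH5 went against the sum. PECAM1 stood at 5.36 CPM in shControl and 1.23 in shRIPOR3 in normoxia. CDH5 stood at 2.19 and 1.32 CPM in normoxia, and at 8.28 and 2.41 CPM in hypoxia. The part of these markers in the results was not tested. The labels do not say whether a group's libraries are separate cultures, and each p-value here reflects the spread among the sequenced samples alone, possibly a technical one. In bulk RNA, fewer cells that express a gene and less RNA per cell cannot be told apart. Counts per gene do not separate splice forms, which matters for VEGFA, whose isoforms differ in how they bind matrix and neuropilins.

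Windows before the RefSeq transcription start were used for 6 of the 8 genes, all but VEGFA and NRP1. The gene spans given with each gene further below are from GENCODE, and some begin upstream of the RefSeq start. The printed stretches of ADM, STC2 and NRP2 lie inside those spans, and the stretches of VEGFB and VEGFC lie before them. Each window of 250 bases was searched on both strands for the HIF core, ACGTG or GCGTG, and for the ATF4 element TGATGNAA. The stretches below show where the core lies in 4 members with different responses to hypoxia, and the window of NRP2, which holds none. They are read 5′ to 3′ on the gene's strand (GRCh38.p14, RefSeq), with each core in capitals, as CACGC where it lies on the opposite strand.
ADM, chr11:10304960-10304988, plus strand: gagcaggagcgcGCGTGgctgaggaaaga
STC2, chr5:173328626-173328655, minus strand: catacaCACGCACGCaaacGCGTGgccgcc
VEGFC, chr4:176792923-176793172, minus strand: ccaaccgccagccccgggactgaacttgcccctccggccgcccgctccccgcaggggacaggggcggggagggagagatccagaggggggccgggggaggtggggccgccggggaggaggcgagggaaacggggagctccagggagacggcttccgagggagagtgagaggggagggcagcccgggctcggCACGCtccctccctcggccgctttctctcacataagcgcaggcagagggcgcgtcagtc
VEGFB, chr11:64234334-64234537, plus strand: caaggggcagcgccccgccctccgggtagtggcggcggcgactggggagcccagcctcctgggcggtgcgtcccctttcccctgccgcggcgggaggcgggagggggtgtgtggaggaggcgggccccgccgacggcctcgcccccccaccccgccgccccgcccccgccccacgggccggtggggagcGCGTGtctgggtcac
NRP2, chr2:205682251-205682499, plus strand: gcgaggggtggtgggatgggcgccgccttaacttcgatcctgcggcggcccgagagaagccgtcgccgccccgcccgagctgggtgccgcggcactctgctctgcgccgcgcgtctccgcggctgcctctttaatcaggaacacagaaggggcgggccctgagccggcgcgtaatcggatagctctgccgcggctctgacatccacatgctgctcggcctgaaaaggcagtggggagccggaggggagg

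Counted from the RefSeq start, with -1 the base before it, the ADM core begins at -101, the VEGFB core at -61 and the VEGFC core at -59. STC2 has 3 cores, at -235, -231 and -222, of which the first pair overlap, and PGF has 1 at -162 in 1 of its windows. NRP2 has none in its window, and no member's window holds the ATF4 element. Of 35116 promoter windows of the same length, 43.2% hold a HIF core and 3.14% hold the ATF4 element, so a core is common. These matches are letters in a window and say nothing of binding, and VEGFB, whose window holds a core, and NRP2, whose window holds none, are both described with their measured response below.

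In the shControl line, hypoxia raised 6 of the 8 genes and lowered none, and VEGFA changed most. Among all 15648 genes tested with edgeR's quasi-likelihood test at an adjusted p under 0.05, 32.4% were called higher and 32.4% lower in that comparison. The median log2 change of the 8 genes was 0.78, beside 0.0158 over all genes. In shRIPOR3, 5 members rose and 1 fell, where 25.2% of all genes were called higher and 30.4% lower, and the median of the members was 0.41, beside -0.0129 over all genes. Scaling by library totals in place of TMM factors put the share of called genes that were higher at 61.6% in shControl and 63.4% in shRIPOR3, against 50% and 45.3%, and moved the median of all genes to 0.126 and 0.110.

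VEGFA, the main angiogenic ligand of the family, lies on chromosome 6 from 43770184 to 43786487 (GRCh38, plus strand). In normoxia it stood at 104, 101 and 99.6 CPM in shControl and at 78.6, 81.3 and 85.7 CPM in shRIPOR3. In hypoxia it reached 340, 330 and 324 CPM in shControl and 166, 165 and 165 CPM in shRIPOR3. The 4 groups did not overlap, and the shControl hypoxia libraries stood highest. Hypoxia raised VEGFA by 1.71 ± 0.0382 on the log2 scale in shControl (log2 fold change ± SE, 3 against 3 libraries, edgeR adjusted p = 5.05e-21), or 3.27-fold. In shRIPOR3 the rise was 1.01 ± 0.0387 (edgeR adjusted p = 3.8e-16), or 2.02-fold. VEGFA was thus lower in shRIPOR3 in both oxygen conditions, by a log2 change of -0.30 ± 0.0407 in normoxia (edgeR adjusted p = 1.39e-06) and of -1.0 ± 0.0358 in hypoxia (edgeR adjusted p = 5.02e-17).

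VEGFC, the ligand best known for lymphatic vessel growth, lies on chromosome 4 from 176683538 to 176792727 (minus strand). It stood at 15.3, 14.8 and 15.2 CPM in shControl and 16.8, 15 and 14.6 CPM in shRIPOR3 in normoxia, where the groups overlapped. In hypoxia it stood at 29.3, 28.1 and 28.2 CPM in shControl and 20.5, 20.8 and 21.3 CPM in shRIPOR3, with no overlap. Hypoxia raised VEGFC by 0.92 ± 0.0553 on the log2 scale in shControl (edgeR adjusted p = 4.8e-13) and by 0.45 ± 0.0561 in shRIPOR3 (edgeR adjusted p = 2.93e-07). The hairpins did not differ detectably in normoxia, with a log2 difference of 0.02 and a 95% interval from -0.113 to 0.152. In hypoxia VEGFC was lower in shRIPOR3, by a log2 change of -0.45 ± 0.0472 (edgeR adjusted p = 1.11e-08).

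VEGFB, a ligand of the receptor FLT1 with a weak effect on vessel growth, lies on chromosome 11 from 64234538 to 64238793 (plus strand). It was nearly flat across oxygen, at 48.2, 50.2 and 53.0 CPM in normoxia and 54.4, 51.7 and 53.1 CPM in hypoxia in shControl. In shRIPOR3 it stood at 43.8, 45.5 and 42.5 CPM in normoxia and 37.8, 39.5 and 42.6 CPM in hypoxia. The oxygen groups overlapped within each hairpin, while the hairpins were apart in both oxygen conditions. The response to hypoxia was 0.07 ± 0.0485 on the log2 scale in shControl (edgeR adjusted p = 0.197) and -0.13 ± 0.0496 in shRIPOR3 (edgeR adjusted p = 0.025). That second call was lost in 11 of 21 alternatives, among them fits without normoxia shRIPOR3 replicate 2, hypoxia shControl replicates 2 and 3, and hypoxia shRIPOR3 replicates 1 and 2 (edgeR adjusted p from 0.0595 to 0.147). With library totals the shControl response was called, at 0.183 (edgeR adjusted p = 0.00237). VEGFB was lower in shRIPOR3 by -0.20 ± 0.052 in normoxia (edgeR adjusted p = 0.00242) and by -0.41 ± 0.0459 in hypoxia (edgeR adjusted p = 3.78e-08), both log2 changes.

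PGF, placenta growth factor, which also binds FLT1, lies on chromosome 14 from 74941834 to 74955784 (minus strand) and was close to the limit of detection. In normoxia it stood at 0.949, 1.12 and 0.898 CPM in shControl and 1.39, 1.23 and 1.05 CPM in shRIPOR3. In hypoxia it stood at 0.925, 0.903 and 0.669 CPM in shControl and 0.724, 0.867 and 1.06 CPM in shRIPOR3. The compared groups overlapped in every comparison, and PGF was called in none. The response to hypoxia was -0.21 with a 95% interval from -0.694 to 0.272 on the log2 scale in shControl, and -0.43 with an interval from -0.867 to 0.0112 in shRIPOR3. Without hypoxia shRIPOR3 replicate 3 the latter was called, at -0.604 (edgeR adjusted p = 0.0353).

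ADM, a vasodilator peptide, lies on chromosome 11 from 10304680 to 10307397 (plus strand), and it was higher in shRIPOR3 where VEGFA was lower. It stood at 33.0, 32.5 and 34.9 CPM in shControl and 77.2, 75.3 and 78.4 CPM in shRIPOR3 in normoxia. In hypoxia it stood at 73.4, 70.9 and 75.1 CPM in shControl and 99.6, 95.3 and 105 CPM in shRIPOR3. The normoxia shRIPOR3 libraries thus lay just above the hypoxia shControl libraries. Hypoxia raised ADM by 1.12 ± 0.0465 on the log2 scale in shControl (edgeR adjusted p = 4.8e-16) and by 0.38 ± 0.0413 in shRIPOR3 (edgeR adjusted p = 3.07e-08). The hairpin difference was 1.20 ± 0.048 in normoxia (edgeR adjusted p = 1.76e-15), or 2.29-fold, and 0.45 ± 0.0397 in hypoxia (edgeR adjusted p = 5.98e-10), or 1.37-fold.

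STC2, a secreted inhibitor of the protease PAPP-A, lies on chromosome 5 from 173314713 to 173329503 (minus strand) and was expressed at a low level. It stood at 1.54, 1.82 and 1.80 CPM in shControl and 2.05, 2.15 and 1.96 CPM in shRIPOR3 in normoxia. In hypoxia it stood at 3.17, 2.74 and 3.10 CPM in shControl and 2.08, 2.49 and 2.54 CPM in shRIPOR3. Of the groups compared, only the oxygen groups of shRIPOR3 overlapped. Hypoxia raised STC2 by 0.82 ± 0.144 on the log2 scale in shControl (edgeR adjusted p = 2.65e-05), and the response in shRIPOR3 was 0.21 ± 0.141 (edgeR adjusted p = 0.222). With library totals the response in shRIPOR3 was called, at 0.331 (edgeR adjusted p = 0.0491). The hairpin difference was 0.26 ± 0.17 in normoxia (edgeR adjusted p = 0.246) and -0.35 ± 0.115 in hypoxia (edgeR adjusted p = 0.0107). The call in hypoxia was lost after thinning (adjusted p = 0.219), in DESeq2 (adjusted p = 0.0712), without hypoxia shControl replicate 1 (edgeR adjusted p = 0.0559) and without hypoxia shRIPOR3 replicate 1 (edgeR adjusted p = 0.0911).

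**Figure D1:**
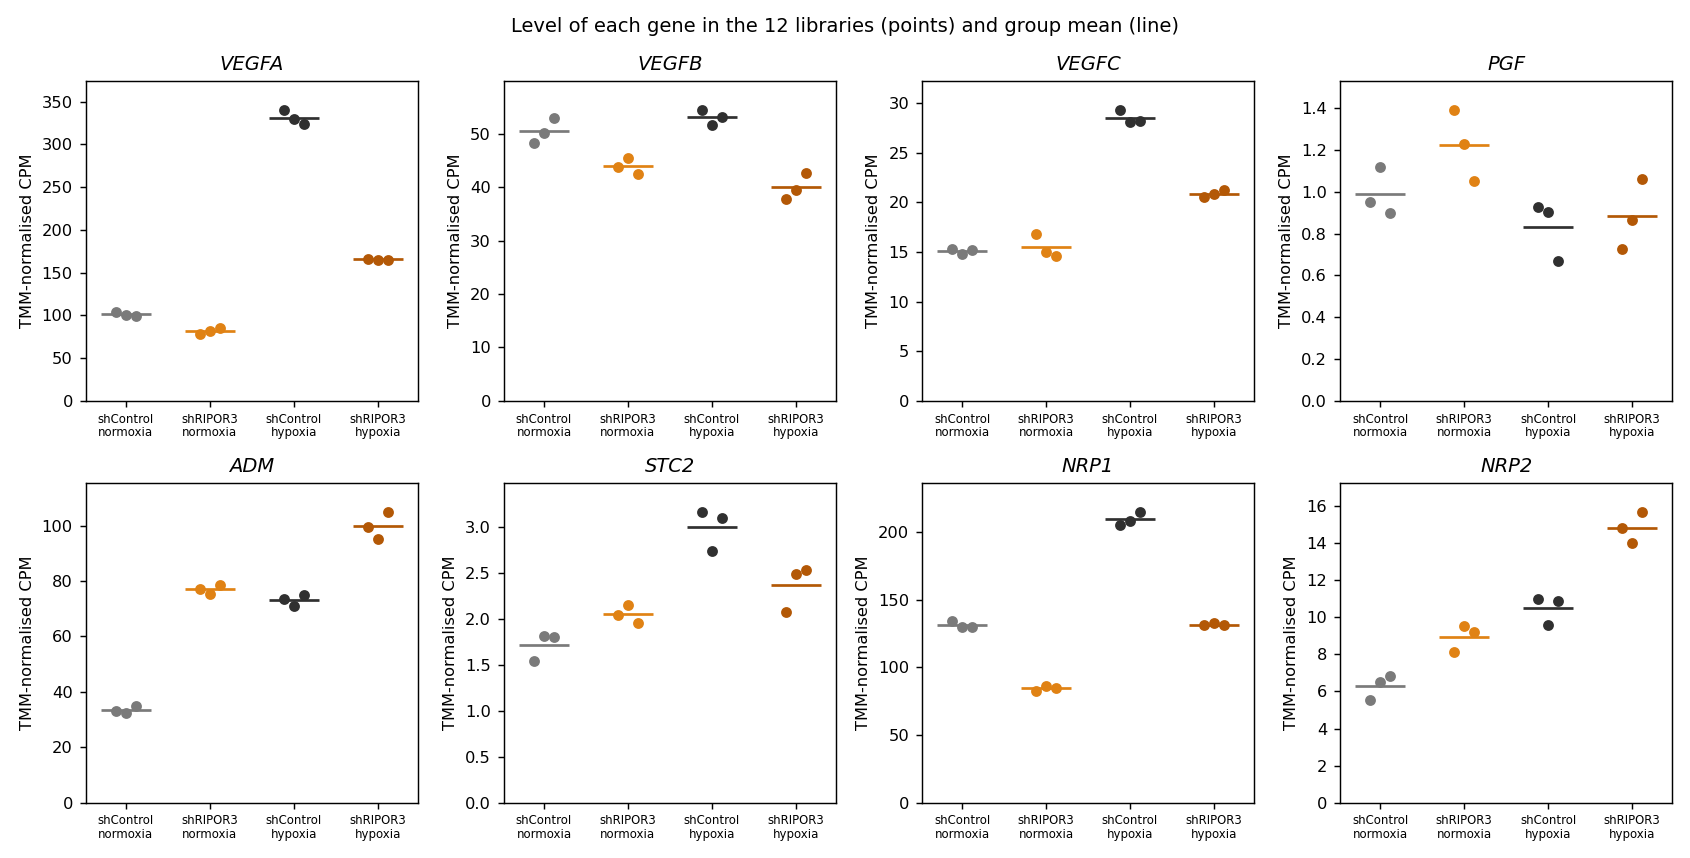
TMM-normalised CPM (vertical axis, linear and starting at 0) of each of the 8 genes in the 12 libraries (points) and the mean of each group of 3 (line). VEGFA and VEGFC are highest in the hypoxia shControl libraries, while ADM and NRP2 are highest in the hypoxia shRIPOR3 libraries.

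NRP1, co-receptor for VEGFA and for class 3 semaphorins, lies on chromosome 10 from 33177492 to 33336262 (minus strand). It stood at 134, 130 and 130 CPM in shControl and 82.3, 86.3 and 85.0 CPM in shRIPOR3 in normoxia. In hypoxia it stood at 205, 208 and 215 CPM in shControl and 131, 133 and 131 CPM in shRIPOR3. The hypoxia shRIPOR3 libraries therefore stood at the level of the normoxia shControl libraries. Hypoxia raised NRP1 by 0.67 ± 0.0352 on the log2 scale in shControl (edgeR adjusted p = 3.98e-14) and by 0.64 ± 0.0365 in shRIPOR3 (edgeR adjusted p = 5.01e-13). NRP1 was lower in shRIPOR3 by a log2 change of -0.64 ± 0.0376 in normoxia (edgeR adjusted p = 1.52e-12) and of -0.66 ± 0.034 in hypoxia (edgeR adjusted p = 3.43e-14).

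NRP2, the co-receptor best known for VEGFC signalling in lymphatic vessels, lies on chromosome 2 from 205681990 to 205798133 (plus strand) and differed between the hairpins in the opposite direction. It stood at 5.54, 6.52 and 6.86 CPM in shControl and 8.13, 9.56 and 9.20 CPM in shRIPOR3 in normoxia. In hypoxia it stood at 11, 9.61 and 10.9 CPM in shControl and 14.8, 14.0 and 15.7 CPM in shRIPOR3. No 2 compared groups overlapped. Hypoxia raised NRP2 by 0.74 ± 0.0917 on the log2 scale in shControl (edgeR adjusted p = 1.56e-07) and by 0.72 ± 0.0803 in shRIPOR3 (edgeR adjusted p = 4.83e-08). NRP2 was higher in shRIPOR3 by 0.52 ± 0.101 in normoxia (edgeR adjusted p = 0.000155) and by 0.50 ± 0.0708 in hypoxia (edgeR adjusted p = 1.46e-06).

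The ratio of NRP1 to NRP2 counts within a library, which needs no scaling between libraries, set the hairpins apart and hardly moved with oxygen. It was 24.2, 19.9 and 19.0 in normoxia shControl and 10.1, 9.03 and 9.24 in normoxia shRIPOR3. In hypoxia it was 18.7, 21.6 and 19.7 in shControl and 8.90, 9.52 and 8.35 in shRIPOR3. All 6 shControl libraries thus lay above all 6 shRIPOR3 libraries. The ratio is a description of the same counts and was not tested separately.

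**Figure D2:**
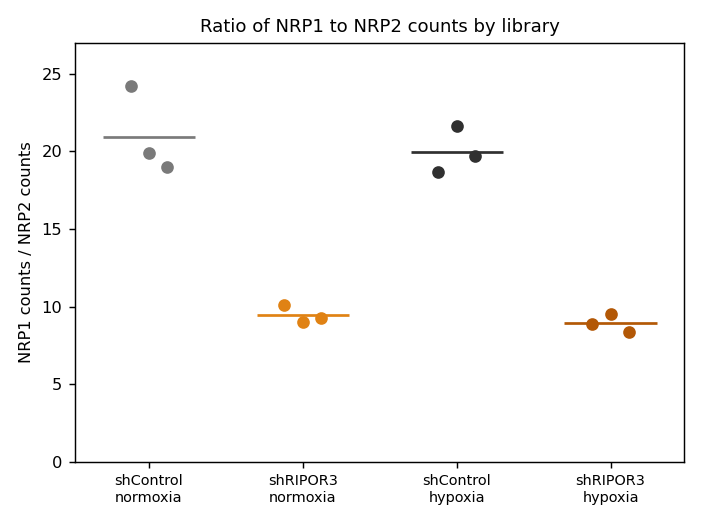
Ratio of NRP1 to NRP2 counts (vertical axis, linear and starting at 0) in each library (points), with the geometric mean of each group (line). The shControl libraries lie between 18.7 and 24.2 and the shRIPOR3 libraries between 8.35 and 10.1.

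Between the hairpins, 2 of the 8 genes were higher and 3 lower in shRIPOR3 in normoxia, where 25.1% of all genes were called higher and 20.6% lower. In hypoxia 2 were higher and 5 lower, where 30.7% of all genes were called higher and 31.2% lower. The median log2 difference of the 8 genes was 0.139 in normoxia and -0.38 in hypoxia, beside 0.0331 and -0.00286 over all genes. The comparisons share libraries, so their values are set side by side and not counted as separate evidence.

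**Figure D3:**
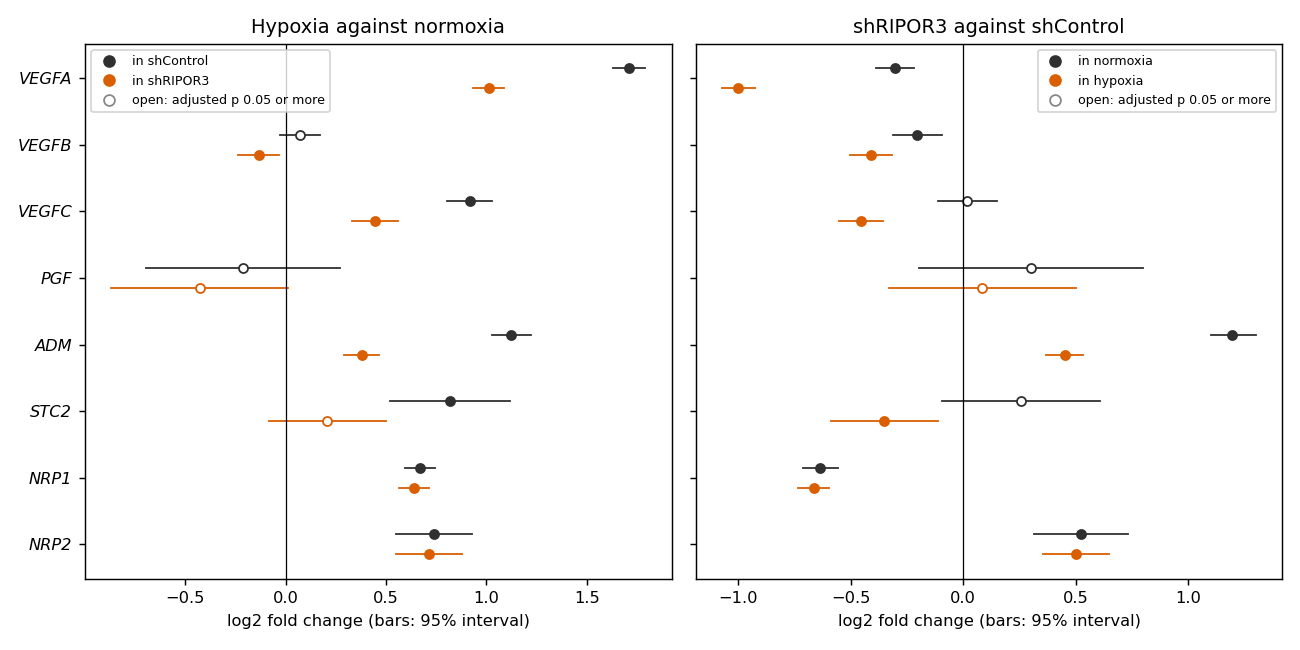
Log2 fold change (horizontal axis, bars are 95% intervals) of each gene for hypoxia against normoxia (left) and shRIPOR3 against shControl (right), with open points where the edgeR adjusted p is 0.05 or more. NRP1 and NRP2 have nearly the same hypoxia response in both hairpins, while those of VEGFA, VEGFC and ADM are smaller in shRIPOR3.

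The test of the interaction asked whether the log2 response to hypoxia differed between the hairpins. It was called lower in shRIPOR3 for 5 of the 8 genes and higher for none, where 10.9% of all genes were called higher and 12.3% lower. The difference was -0.70 ± 0.0541 for VEGFA (edgeR adjusted p = 2.39e-09), and -0.47 ± 0.0797 for VEGFC (edgeR adjusted p = 0.000128). For ADM it was -0.74 ± 0.0624 (edgeR adjusted p = 9.29e-09). VEGFA and ADM share the sign of this difference, although VEGFA was lower and ADM higher in shRIPOR3 in both oxygen conditions. The differences for VEGFB, -0.21 ± 0.0694 (edgeR adjusted p = 0.0333), and for STC2, -0.61 ± 0.205 (edgeR adjusted p = 0.0335), were near the threshold. The VEGFB call was lost in 12 of 20 alternatives, with adjusted p from 0.0105 to 0.123 over all of them. Any single library other than normoxia shControl replicate 3, normoxia shRIPOR3 replicate 3 and hypoxia shRIPOR3 replicate 3 ended it when left out (edgeR adjusted p from 0.0544 to 0.123). The STC2 call was lost in 11 of 20, with adjusted p from 0.0276 to 0.393 over all of them. Any single library other than normoxia shControl replicate 2, hypoxia shControl replicate 2, and hypoxia shRIPOR3 replicates 2 and 3 ended it when left out (edgeR adjusted p from 0.0508 to 0.105). For the neuropilins no difference was detected, and the 95% interval ran from -0.134 to 0.0756 for NRP1 and from -0.279 to 0.231 for NRP2. For PGF it ran from -0.866 to 0.433.

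Levels can be compared between genes only per length, here as TMM-normalised CPM per kilobase of the longest basic protein-coding transcript in GENCODE 29. The order depends on the length used, as given below. In normoxia shControl it was VEGFB at 36.6, VEGFA at 28.7, NRP1 at 22.3, ADM at 17.7 and VEGFC at 7.31 CPM per kilobase. NRP2 followed at 0.947, PGF at 0.514 and STC2 at 0.321 CPM per kilobase. In hypoxia shControl VEGFA led at 93.7, before ADM at 38.7, VEGFB at 38.5 and NRP1 at 35.5 CPM per kilobase, and ADM and VEGFB (SD 1.13 and 0.994, n = 3 each) differed by less than their spread. In hypoxia shRIPOR3 ADM led at 52.9, before VEGFA at 46.8 CPM per kilobase.

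This order rests on the length chosen, most of all for VEGFA. Of 3 length definitions that were tried, with the values in view, the longest basic transcript gives VEGFA 3535 bases, all annotated exons joined give 14431 and the APPRIS principal transcript gives 1199. In normoxia shControl VEGFA then has 28.7, 7.02 or 84.5 CPM per kilobase, and in hypoxia shRIPOR3 46.8, 11.5 or 138. VEGFA accordingly has rank 2, 4 or 1 among the 8 genes in normoxia shControl and rank 1, 3 or 1 in hypoxia shControl. With exons joined, VEGFB at 34.3 and ADM at 26.9 stand above VEGFA at 22.9 CPM per kilobase in hypoxia shControl. In normoxia shControl that length moves ADM from rank 4 to 2 and puts PGF at 0.166, below STC2 at 0.281 CPM per kilobase. ADM is ahead of VEGFA in hypoxia shRIPOR3 under the first and second definitions and behind it under the APPRIS one. NRP1 stands above NRP2 per kilobase in all 4 groups under every definition, and fold changes of a gene between groups do not depend on its length.

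Most receptors for these ligands had low counts. FLT1, receptor for VEGFA, VEGFB and PGF, held 27 to 112 counts per library and was lower in shRIPOR3, by a log2 change of -0.45 ± 0.17 in normoxia (edgeR adjusted p = 0.0325) and -0.53 ± 0.134 in hypoxia (edgeR adjusted p = 0.00144). KDR, the main signalling receptor for VEGFA, held 99 to 526 counts per library and rose in hypoxia by 0.43 ± 0.0905 on the log2 scale in shControl (edgeR adjusted p = 0.000188) and by 0.46 ± 0.0876 in shRIPOR3 (edgeR adjusted p = 8.83e-05). FLT4, the receptor for VEGFC, held 2 to 25 counts per library. In shControl it rose in hypoxia by 1.79 ± 0.407 on the log2 scale (edgeR adjusted p = 0.000467). Its response in shRIPOR3, 0.86 ± 0.416, was not called (edgeR adjusted p = 0.084). In hypoxia FLT4 was lower in shRIPOR3 by a log2 change of -0.67 ± 0.278 (edgeR adjusted p = 0.0399). It did not differ detectably between the hairpins in normoxia (edgeR adjusted p = 0.733). VEGFD, the remaining ligand on the list, held at most 3 counts in a library and was not tested. CALCRL, the receptor that binds adrenomedullin together with a RAMP protein, held 0 to 2 counts per library, and RAMP1 held 14 to 58. RAMP1 was lower in shRIPOR3 by a log2 change of -0.61 ± 0.213 in normoxia (edgeR adjusted p = 0.0223). In hypoxia its change was -0.45 ± 0.181 (edgeR adjusted p = 0.0345). Of 10 genes listed for the adrenomedullin system, 5 were found among the gene symbols. RAMP2 and RAMP3 were not among those found and have no values here.

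PAM, the enzyme that amidates adrenomedullin to its active form, rose in hypoxia by 1.61 ± 0.0366 on the log2 scale in shControl (edgeR adjusted p = 6.79e-21) and by 0.61 ± 0.0362 in shRIPOR3 (edgeR adjusted p = 1.03e-12). In shRIPOR3 it was higher in normoxia, as ADM was, by 0.20 ± 0.0383 (edgeR adjusted p = 0.000176), and lower in hypoxia, where ADM was higher, by a log2 change of -0.81 ± 0.0342 (edgeR adjusted p = 1.11e-15). ADM2, a related peptide with only 21, 10 and 15 counts in normoxia shControl, rose in hypoxia in shControl by 1.27 ± 0.255 (edgeR adjusted p = 0.000125). It was higher in shRIPOR3 in normoxia by 1.22 ± 0.279 (edgeR adjusted p = 0.00089). STC1, the paralogue of STC2, rose in hypoxia by 1.67 ± 0.0406 in shControl (edgeR adjusted p = 2.05e-20) and by 0.77 ± 0.0433 in shRIPOR3 (edgeR adjusted p = 3.59e-13). PAPPA, the protease that stanniocalcins inhibit, rose in hypoxia by 1.56 ± 0.218 in shControl (edgeR adjusted p = 1e-06), from 15, 14 and 19 counts in normoxia. Of 6 genes of VEGFC processing, 1 was higher and 2 were lower in shRIPOR3 in each oxygen condition, beside 25.1% and 20.6% of all genes in normoxia and 30.7% and 31.2% in hypoxia. CCBE1, which helps to activate the VEGFC precursor, was lower in shRIPOR3 by a log2 change of -0.70 ± 0.0634 in normoxia (edgeR adjusted p = 2.79e-09) and -0.85 ± 0.0561 in hypoxia (edgeR adjusted p = 3.53e-12). PCSK7, a proprotein convertase, was higher by 0.21 ± 0.0697 in normoxia (edgeR adjusted p = 0.0145) and 0.50 ± 0.0559 in hypoxia (edgeR adjusted p = 3.63e-08).

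Of 8 neuropilin partners, 6 were lower and 2 higher in shRIPOR3 in each oxygen condition, where 20.6% of all genes were lower and 25.1% higher in normoxia, and 31.2% lower and 30.7% higher in hypoxia. PLXNA1, a plexin that signals with NRP1, was lower by a log2 change of -0.97 ± 0.0476 in normoxia (edgeR adjusted p = 5.22e-14), whereas PLXNA2, of the same family, was higher by 0.44 ± 0.0406 (edgeR adjusted p = 4.32e-09). Class 3 semaphorins are a family that includes other ligands of neuropilins. Of 7 such genes, 4 were higher and 1 lower in shRIPOR3 in normoxia, and 4 were higher and 2 lower in hypoxia, beside the same shares of all genes. SEMA3E was higher in hypoxia by 1.11 ± 0.0965 (edgeR adjusted p = 5.03e-10) and SEMA3B lower by a log2 change of -1.08 ± 0.116 (edgeR adjusted p = 2.07e-08). Under hypoxia in shControl 3 semaphorins rose and 2 fell, beside 32.4% of all genes in each direction.

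Other angiogenic factors divided as well, with 7 of 14 tested genes higher and 4 lower under hypoxia in shControl, beside 32.4% of all genes each way. In hypoxia 4 were higher and 8 lower in shRIPOR3, beside 30.7% and 31.2% of all genes. EDN1, the precursor of the vasoconstrictor endothelin 1, had the signs of ADM: it rose in hypoxia in shControl by 1.0 ± 0.0589 (edgeR adjusted p = 3.03e-13) and was higher in shRIPOR3 in normoxia by 1.48 ± 0.0596 (edgeR adjusted p = 1.8e-15). ANGPTL4, a secreted inhibitor of lipoprotein lipase, had the signs of VEGFA in hypoxia: it rose by 3.94 ± 0.151 in shControl (edgeR adjusted p = 1.06e-16) and was lower in shRIPOR3 by a log2 change of -2.67 ± 0.103 (edgeR adjusted p = 2.18e-16). Its rise starts from low counts, 21, 9 and 15 in the normoxia shControl libraries. Of 7 tested inhibitors of angiogenesis, 6 rose and 1 fell under hypoxia in shControl, again beside 32.4% of all genes each way. THBS1, thrombospondin 1, rose by 1.37 ± 0.0366 (edgeR adjusted p = 1.17e-19).

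**Figure D4:**
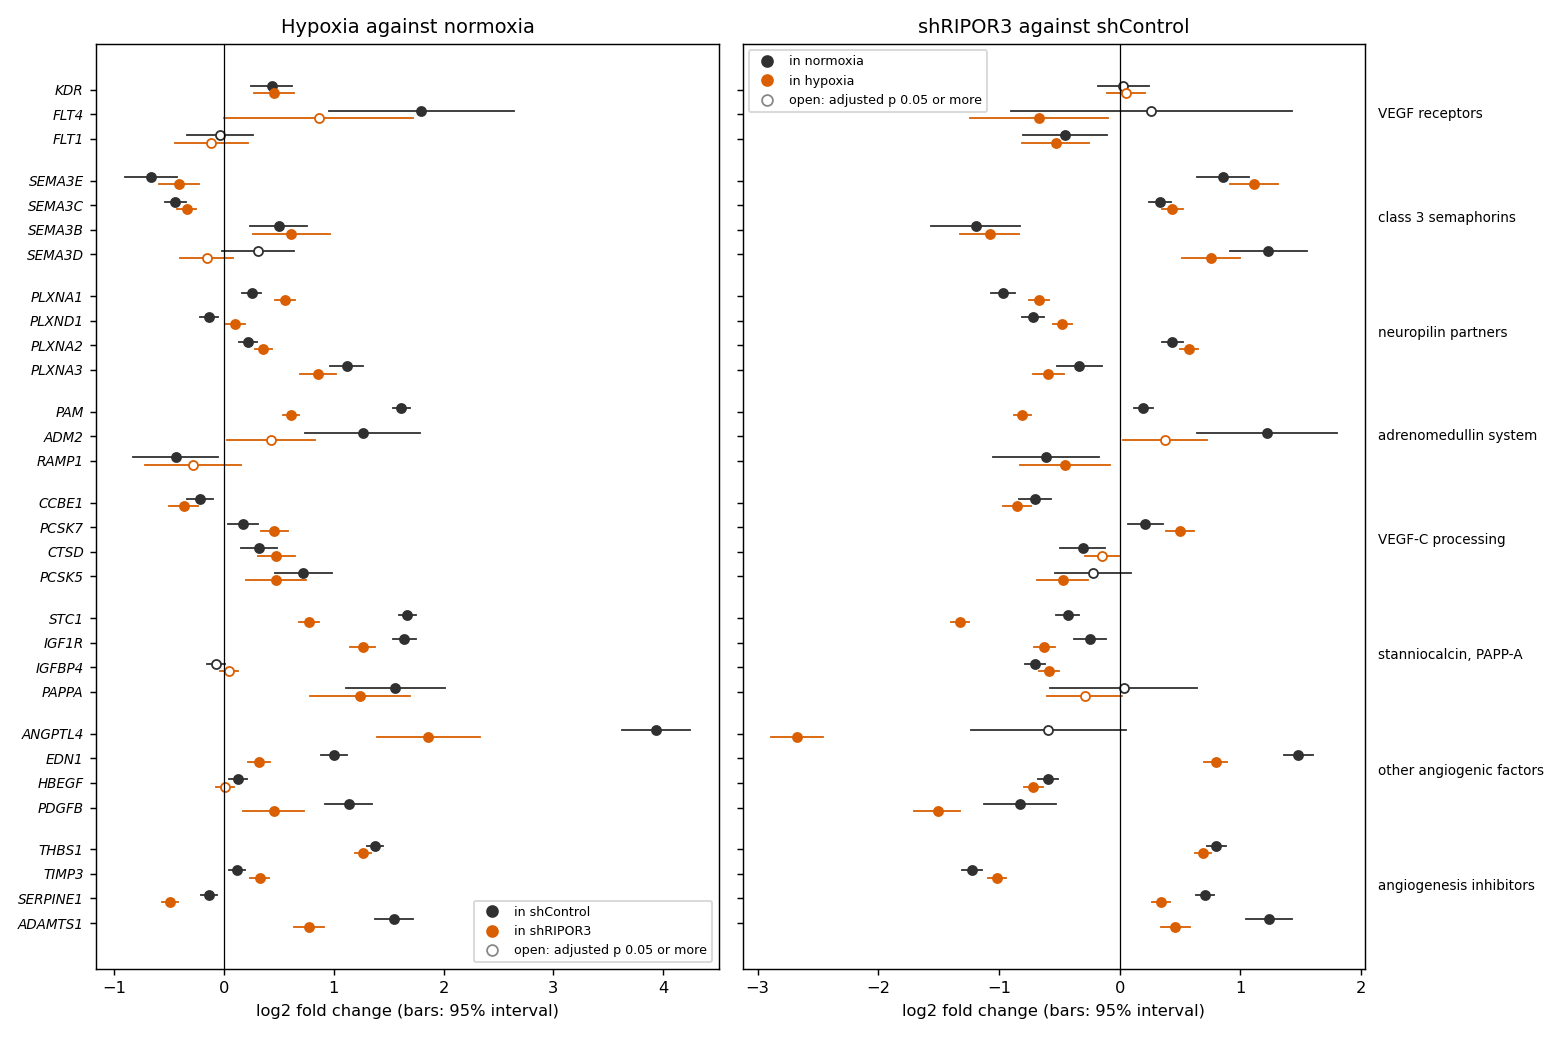
Log2 fold change (horizontal axis, bars are 95% intervals) of up to 4 genes per related list for hypoxia against normoxia (left) and shRIPOR3 against shControl (right), with open points where the edgeR adjusted p is 0.05 or more. PAM, STC1, ANGPTL4 and EDN1 have smaller hypoxia responses in shRIPOR3 than in shControl, and the plexins and semaphorins lie on both sides of 0 in the hairpin comparison.

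Among regulators, HIF1A mRNA, for an oxygen-regulated HIF subunit, fell in hypoxia from 180 ± 0.293 to 64.9 ± 2.44 CPM in shControl and from 103 ± 3.56 to 61.7 ± 1.66 CPM in shRIPOR3 (mean ± SD, n = 3 each). EPAS1, which encodes the HIF2 subunit, rose from 7.91 ± 0.215 to 17.3 ± 0.608 CPM in shControl and from 5.63 ± 0.469 to 7.99 ± 0.138 CPM in shRIPOR3. The hypoxia response of EPAS1 was smaller in shRIPOR3, by a log2 difference of -0.65 ± 0.108 (edgeR adjusted p = 0.000107). For HIF1A this difference had the opposite sign, 0.73 ± 0.0549 (edgeR adjusted p = 1.49e-09), and for ATF4 it was -0.28 ± 0.0473 (edgeR adjusted p = 0.000158). The hypoxia response of ATF4 was not called in shControl, at 0.0655 ± 0.0338 (edgeR adjusted p = 0.0937). In shRIPOR3 ATF4 fell in hypoxia, by a log2 change of -0.21 ± 0.0332 (edgeR adjusted p = 7.82e-06). HIF1A was lower in shRIPOR3 in normoxia, by a log2 change of -0.80 ± 0.0388 (edgeR adjusted p = 3.72e-14). ATF4, a stress-response factor, was higher in shRIPOR3, by 0.82 ± 0.034 on the log2 scale in normoxia (edgeR adjusted p = 2.42e-15) and 0.55 ± 0.0332 in hypoxia (edgeR adjusted p = 7.29e-13). The part of these regulators in the levels of the 8 genes was not tested.

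The genes whose log2 CPM were most like each member over the 12 libraries, among genes of at least 5 CPM, were HEG1 and CIT for VEGFA (Pearson r of 0.998 and 0.997), and RLF and TACC2 for NRP1 (0.996 each). For ADM they were CYR61 and TBC1D4 (0.990 and 0.987), and for VEGFC HIVEP2 and KLF7 (0.992 and 0.991). For VEGFB they were CD99 and IGFBP7 (0.985 and 0.962), for NRP2 ZNF783 and ABCC5 (0.980 and 0.979), for STC2 ALDH2 and DTNA (0.958 and 0.954), and for PGF OTUD6B-AS1 and DMXL1 (0.883 and 0.871). The libraries share 4 groups, so these values describe a shared order of group levels, and they were picked as the highest of 9789 or 9790 genes.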

How the data were processed

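The authors deposited raw counts per gene symbol, 1 column for each of the 12 libraries. Per the submitters' processing notes, fastp 0.23.4, STAR 2.5.3a, featureCounts and GRCh38 were used, and per the labels stranded mRNA libraries were made. Not given in the sources used here are the annotation, strand setting and treatment of duplicates. Names of 24 symbols had become dates, held 0.2% of the counts and were kept.

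The model was edgeR 4.0.16 under R 4.3.3, with TMM factors, filterByExpr and 1 coefficient per group over all 12 libraries. Quasi-likelihood F-tests were adjusted by Benjamini and Hochberg over 15648 genes, with a threshold of 0.05. The SE is the size of the log2 fold change divided by the square root of F. The biological coefficient of variation was 3.75%, and counts of 16 to 58 per library limit PGF most. Same-numbered libraries did not deviate together (correlations from -0.127 to 0.131 over 18 pairs), so no block was used. The script was tested on simulated data.

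The members and the gene lists were chosen with earlier results of these data known. The rule for named genes takes the 8 members, RIPOR3, 3 regulators, defining receptors, and from each list up to 4 genes past the threshold with the smallest p, of which the text names some. Named outside this rule are the markers AXL, ZEB1, CAV1, ESAM, EMCN, ERG and VWF, the ligand VEGFD, and the genes most like each member. Alternatives were DESeq2 1.42.0, 3 other scalings, 2 filters, thinning, dropping each library in turn, a replicate block, fits of the compared groups alone, and 0.01 as the threshold. Lengths are from GENCODE 29. The longest basic protein-coding transcript was settled on after 2 other definitions had been computed and their values seen, and all 3 are given.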

Additional observations from a re-analysis of the deposited data

Results flagged for a closer look

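The response to hypoxia differed between the hairpins for 5 of the 8 genes by the interaction term of edgeR's quasi-likelihood test, and each was lower in shRIPOR3. The log2 difference was -0.697 for VEGFA (edgeR adjusted p = 2.39e-09), -0.744 for ADM (edgeR adjusted p = 9.29e-09) and -0.473 for VEGFC (edgeR adjusted p = 0.000128). It was -0.206 for VEGFB (edgeR adjusted p = 0.0333) and -0.609 for STC2 (edgeR adjusted p = 0.0335), both near the threshold.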

How the results depend on the processing

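The calls for VEGFA, ADM, NRP1 and NRP2 in the 4 comparisons of 2 groups, and the interaction calls of VEGFA, VEGFC and ADM, held in the alternatives run. With the replicate block 10112, 8664, 7120, 9692 and 3595 genes were called (hypoxia in shControl and in shRIPOR3, hairpins in normoxia and in hypoxia, interaction), and the numbers of members called were those of the fit without it. The 5 members called in the interaction became 3 with no low-count filter, with DESeq2 and at an adjusted p under 0.01, where 2185 in place of 3624 genes were called, and ranged from 3 to 5 when single libraries were left out. The interaction calls lost were those of VEGFB and STC2, and the cause was not tested. No value that changed sign was called. After thinning the interaction was 0.0597 for PGF (-0.217 unthinned) and 0.0542 for NRP2, and DESeq2 gave 6.04e-05 for NRP2. With only the groups compared, VEGFC between hairpins in normoxia was -0.0124. Across fits without single libraries, sign changed for VEGFC between hairpins in normoxia (-0.0315 to 0.0626), for PGF between hairpins in hypoxia (-0.086 to 0.229), and for the interaction of NRP1 (-0.0434 to 0.029) and NRP2 (-0.112 to 0.0786). PGF and STC2 had the fewest counts of the members, as few as 16 and 26 in a library.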
